A study of Mus musculus with 8 samples.

Results

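The Myc network is the group of transcription factors that pair with Max. It was followed here through the 8 genes Myc, Mycn, Max, Mxd1, Mxd3, Mxd4, Mxi1 and Mnt on arrays of mouse embryonic fibroblasts with and without Med23. Members were all probe sets that the array annotation assigned to 1 of these symbols alone. There were 17 such probe sets among 22626 non-control probe sets, and each of the 8 genes had at least 1. The cells were embryonic fibroblast cultures from embryonic day 11 that had been passaged through crisis. Both genotypes were first held in 0.5% serum for 16 h. The 4 groups, each of 2 arrays, were Med23-/- knockout (KO) cells given 20% serum for 30 min, KO cells left starved, wild-type (WT) cells given the same serum, and WT cells left starved. The labels give no strain background and do not say how many cultures or lines stand behind each genotype. In the comparisons of KO with WT, the loss of MED23 and any other difference between the cultures therefore cannot be told apart. The study set out to find genes whose serum response depends on MED23, a subunit of the Mediator complex that connects transcription factors to RNA polymerase.

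Myc and its relative Mycn are basic helix-loop-helix leucine zipper proteins. They bind E-box DNA only as heterodimers with Max and activate genes of cell growth, ribosome production and metabolism. Mxd1, Mxd3, Mxd4, Mxi1 and Mnt also dimerise with Max on the same DNA, but recruit Sin3 corepressor complexes, and Max can pair with itself. Myc is an early serum-response gene of fibroblasts whose mRNA and protein turn over quickly, whereas members of the Mxd group are known mainly from resting and differentiating cells.

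Promoter windows are shown for the members whose transcripts changed with serum in KO cells and had a match to a searched motif, and for Mnt as a member that did not pass that test. They run from 250 bases before to 50 after an annotated start, were taken from RefSeq (build GRCm38.p6), and are written 5' to 3' in the direction of the gene. Myc also changed with serum in KO cells but had no window in that source, so its promoter was not searched. Capitals mark CACGTG, the E-box that Myc-Max and Mxd-Max dimers bind, or the forkhead motif TGTTTAC on either strand. The windows lie at chr12:76962199-76962498 (minus strand, Max), chr5:34187661-34187960 (minus strand, Mxd4), chr11:74830674-74830973 (plus strand, Mnt) and chr19:53329445-53329744 (plus strand, Mxi1).
Max: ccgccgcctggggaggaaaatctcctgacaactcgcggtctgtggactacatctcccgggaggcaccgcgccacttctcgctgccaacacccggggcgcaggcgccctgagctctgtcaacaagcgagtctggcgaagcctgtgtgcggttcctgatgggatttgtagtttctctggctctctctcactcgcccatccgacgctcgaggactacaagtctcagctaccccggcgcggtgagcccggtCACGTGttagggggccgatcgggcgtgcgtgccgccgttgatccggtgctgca
Mxd4: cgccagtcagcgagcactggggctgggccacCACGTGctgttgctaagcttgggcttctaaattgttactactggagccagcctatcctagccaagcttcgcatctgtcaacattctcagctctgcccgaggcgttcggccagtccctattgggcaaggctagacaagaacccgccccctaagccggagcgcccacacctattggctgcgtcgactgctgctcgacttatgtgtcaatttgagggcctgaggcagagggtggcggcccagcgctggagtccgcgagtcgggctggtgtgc
Mnt: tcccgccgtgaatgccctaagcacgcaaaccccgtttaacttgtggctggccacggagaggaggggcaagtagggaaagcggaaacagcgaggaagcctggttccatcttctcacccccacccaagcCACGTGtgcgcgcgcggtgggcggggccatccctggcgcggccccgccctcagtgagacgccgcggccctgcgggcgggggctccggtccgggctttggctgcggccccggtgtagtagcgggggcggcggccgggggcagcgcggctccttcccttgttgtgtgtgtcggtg
Mxi1: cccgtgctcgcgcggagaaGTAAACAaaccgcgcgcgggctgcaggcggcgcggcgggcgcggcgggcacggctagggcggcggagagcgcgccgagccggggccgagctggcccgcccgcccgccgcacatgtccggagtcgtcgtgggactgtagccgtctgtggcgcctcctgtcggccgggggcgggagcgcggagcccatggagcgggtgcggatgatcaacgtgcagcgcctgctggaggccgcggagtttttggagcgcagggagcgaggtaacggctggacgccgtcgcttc

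Of the 8 members, 7 matched the RefSeq table (Mycn, Max, Mxd1, Mxd3, Mxd4, Mxi1 and Mnt), with 3 windows for Mxi1 and 1 for each other gene. CACGTG was found in 3 of these 7 genes, in the windows of Max, Mxd4 and Mnt printed above. Its first base lay 3 bases before the start in Max, 219 in Mxd4 and 123 in Mnt. Among all 32851 windows of the same length 7.15% held this E-box, and by gene it was 8.09% of 27025. A TGTTTAC match stood 231 bases before the start in the Mxi1 window shown, against 3.65% of all windows with such a match, and was not found in the other Mxi1 windows. The Mycn window held 3 matches to the E2F motif TTTNGCGC, of which 2 overlap each other, against 1.38% of windows with any. The AP-1 motif TGANTCA (7.81% of all windows), the CRE motif TGACGTCA (1.79%), the EGR motif GCGTGGGCG (0.612%), TATAAA (13.6%) and the CArG box (1.63%) were searched on both strands and matched in none of the members' windows. These matches describe letters in the window, and binding was not measured.

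Signal is the authors' MAS5 value per probe set on a linear scale. The median signal per array lay between 765.6 and 924.4. The array's 40th percentile, used as a filter on dim probe sets, lay between 412.6 and 497.4. Replicate arrays correlated at r = 0.976 to 0.984 and arrays of different genotype at 0.750 to 0.805. Med23 read 34.61 and 36.91 in KO cells given serum and 28.00 and 132.5 in starved KO cells, against 3595 and 3577 in WT cells given serum and 4901 and 5410 in starved WT cells. Of 12 fibroblast markers 11 passed the filter and 9 were above it on all arrays, while Thy1 was below it on all. Their summed signal was 309573 to 415331 on KO arrays and 187108 to 210653 on WT arrays. Of the 11, 8 were higher on every KO array than on any WT array, such as Pdgfra at 6040 to 15782 on KO arrays and 13.25 to 129.2 on WT arrays. Dcn was lower on every KO array, at 2365 to 3500 on KO arrays and 4807 to 8105 on WT arrays, and 2 overlapped. Pdgfra and Lum lay below the 40th percentile on all WT arrays. The filter admitted them through KO arrays alone, so they had to be higher there. Of all tested probe sets, limma called 47.6% between genotypes in starved cells and 50.2% after serum. The share of all probe sets without overlap over the 8 arrays was not computed. Of markers of other cell types, 3 of 6 epithelial, 1 of 6 endothelial, 1 of 5 blood, 1 of 6 skeletal muscle and 4 of 6 neural genes passed the filter on at least 2 arrays. The neural sum was 3160 to 3700 in KO cells given serum and 3217 to 3378 in starved KO cells. In WT cells it was 7371 to 8314 after serum and 5006 to 5540 when starved. Of the 4 neural genes that passed, 2 were higher and 2 lower on every KO array. Map2 reached the 40th percentile on KO arrays alone and Tubb3 on WT arrays alone, so that both had to differ. The part of the marker genes in the genotype differences below was not tested. In bulk RNA, fewer cells of a type and less RNA per cell cannot be told apart.

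Of the 17 probe sets, 12 passed the filter, covering 7 genes. The other 5 were dim on all 8 arrays, at 41.53 to 218.5 for the only Mxd1 probe set, 39.35 to 379.3 for 1 of 3 Mycn probe sets, 37.97 to 427.6 and 15.34 to 252.5 for 2 of 3 Mxd3 probe sets, and 108.7 to 215.0 for 1 of 2 Mnt probe sets. No difference was tested for these. One Mycn probe set, 1417155_at, passed only through the 2 starved KO arrays, so that it had to differ between groups. Mxd3 1438847_at and the dimmest Mxd4 probe set also reached the 40th percentile on KO arrays alone.

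**Figure D1:**
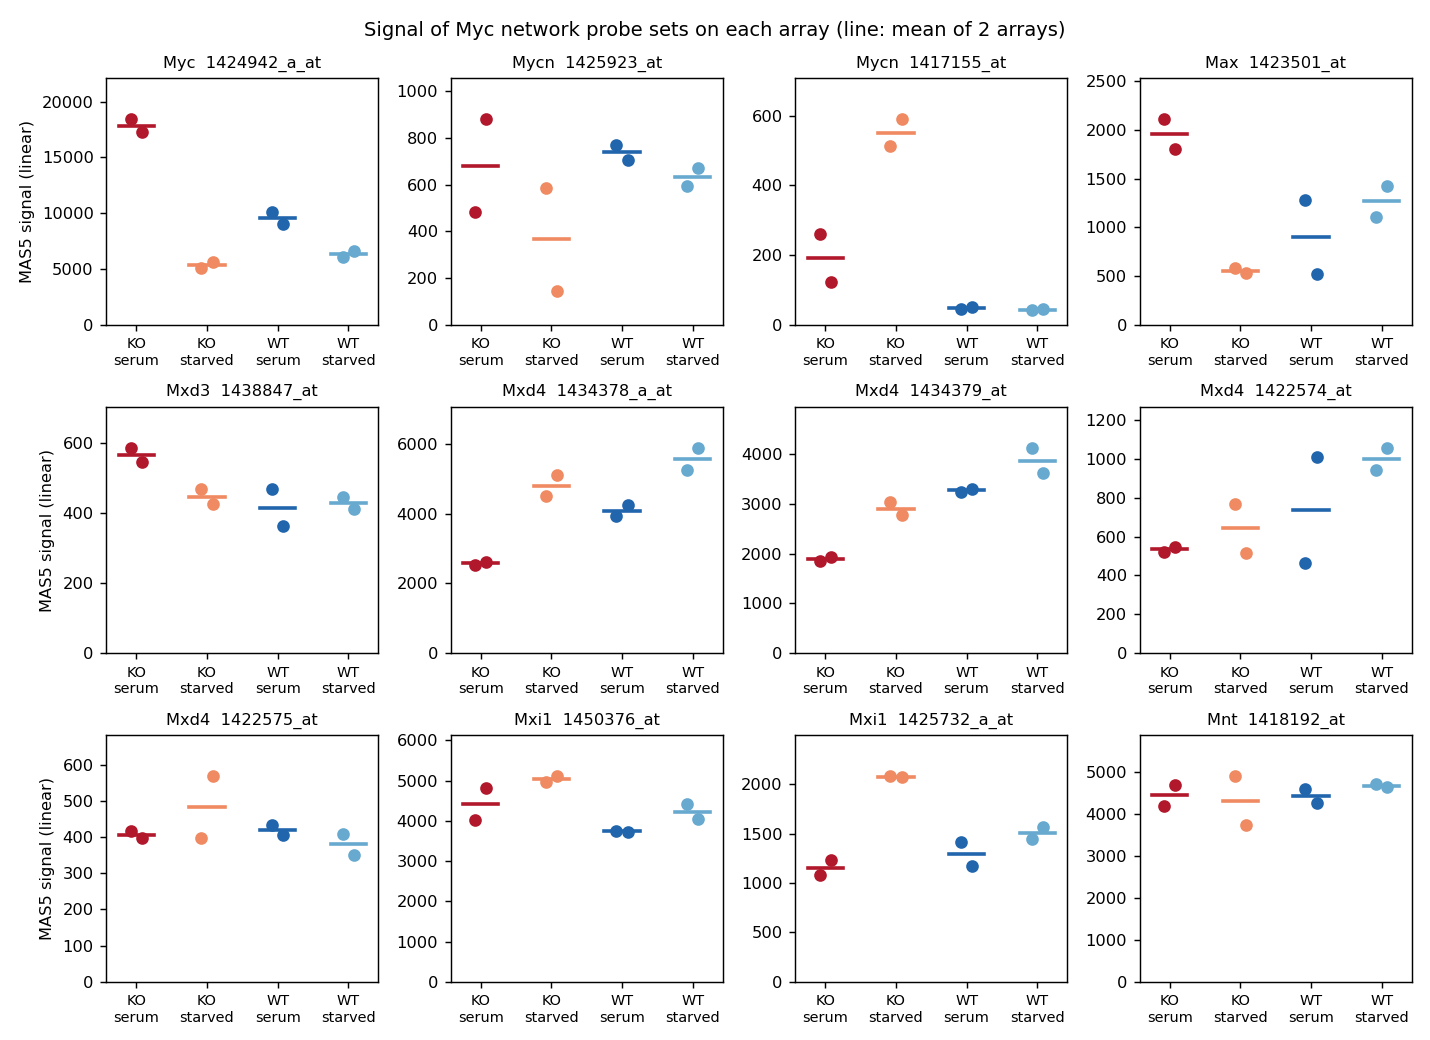
MAS5 signal (linear, y axis from 0) of the 12 tested Myc network probe sets on each of the 8 arrays, by group, with a line at the mean of 2 arrays. The Myc arrays of KO cells given serum, at 18407 and 17264, lie above all other arrays, while the arrays of Max in WT cells given serum lie apart at 1282 and 526.2.

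Myc, the founding member, rose with serum in both genotypes and rose more in KO cells. Its single probe set read 18407 and 17264 in KO cells given serum, against 5066 and 5646 in starved KO cells. In WT cells it read 10103 and 9077 after serum, against 6096 and 6644 in starved cells. Within each genotype the groups did not overlap, and the KO serum arrays held its highest values. The rise was 1.73 ± 0.114 (SE) on the log2 scale in KO cells, or 3.33-fold (limma adjusted p = 5.78e-06), and 0.59 ± 0.114 in WT cells (limma adjusted p = 0.0170). The difference between these responses, tested as an interaction, was 1.15 ± 0.161 (95% interval 0.79 to 1.51, limma adjusted p = 0.00569). Such log2 differences are of signal plus 16. The WT rise lost its call in 4 of 19 alternatives. Its limma adjusted p was 0.138 without WT serum array 1, 0.116 and 0.0542 without starved WT array 1 or 2, and 0.0617 without a mean-variance trend.

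The 4 groups ranked for Myc as KO serum, WT serum, WT starved and KO starved, from high to low. After serum KO cells held 0.90 ± 0.114 more on the log2 scale than WT cells, or 1.86-fold (limma adjusted p = 0.000138). In starved cells the order was turned, with a log2 difference of -0.25 that did not pass (95% interval -0.50 to 0.00391, limma adjusted p = 0.0968), although the arrays of the groups did not overlap. KO cells thus stood above WT cells after serum, and their starved level was not distinguished from that of WT cells. Over 18 alternative settings the interaction lay between 1.02 and 1.22 with adjusted p from 0.00373 to 0.0455.

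Mycn, the second activator, is known chiefly from embryonic and neural cells. Its tested probe sets had serum differences of opposite sign in KO cells, neither of which passed. The brightest, 1425923_at, read 482.5 and 879.5 in KO cells given serum, 586.7 and 146.7 in starved KO cells, 771.3 and 708.0 in WT cells given serum and 592.6 and 670.5 in starved WT cells. Its arrays scattered most in KO cells, and no comparison passed. The serum difference in KO cells was 1.09 (95% interval -0.04 to 2.23, limma adjusted p = 0.150). It was 0.15 without starved KO array 2 and 2.04 without starved KO array 1. In starved cells KO stood at -1.05 relative to WT, which did not pass (limma adjusted p = 0.117). That difference rested on 1 array, being -0.10 without starved KO array 2 and -1.99 without starved KO array 1. Fits without a starved KO array leave 1 in that group and are not read as tests. The second probe set, 1417155_at, read 261.0 and 121.6 in KO cells given serum and 512.7 and 588.9 in starved KO cells, against 46.51 and 50.81 in WT cells given serum and 43.67 and 43.90 in starved WT cells. All KO arrays stood above all WT arrays. WT signals and both KO serum arrays lay below the 40th percentile. Since the filter admitted this probe set through the starved KO arrays alone, its signals are a description, and its limma results are not read as support for a difference.

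Max, the shared partner of all other members, was the other member whose serum response differed by genotype in the interaction test, and its arrays scattered more than those of Myc. Its only probe set read 2108 and 1808 in KO cells given serum, against 582.3 and 528.1 in starved KO cells. In WT cells it read 1282 and 526.2 after serum, against 1109 and 1427 in starved cells. KO serum arrays were the highest and starved KO arrays were low, while 1 WT serum array was as low as starved KO cells and the other lay within the range of starved WT cells. Max rose 3.45-fold with serum in KO cells (log2 1.79 ± 0.337, limma adjusted p = 0.00474). In WT cells the difference of -0.60 did not pass (95% interval -1.35 to 0.15, limma adjusted p = 0.398). It was 0.03 without WT serum array 2 and -1.23 without WT serum array 1, and so rested on which WT serum array was kept.

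The difference between the Max responses was 2.39 ± 0.477 on the log2 scale (95% interval 1.33 to 3.45, limma adjusted p = 0.0302). This call was lost without any 1 array other than the WT serum arrays, with values of 2.21 to 2.57 and adjusted p of 0.0507 to 0.125, and also with no filter (adjusted p = 0.0688) or without a mean-variance trend (adjusted p = 0.0825). Without WT serum array 1 or 2 the value was 3.02 or 1.76. Only 1 array is then left in that group, so the spread between 1282 and 526.2 no longer enters the test. No support is drawn from those fits. Starved KO cells held less Max than starved WT cells, with a log2 difference of -1.16 ± 0.337 (limma adjusted p = 0.0170). KO cells given serum held more than WT cells given serum, by 1.23 ± 0.337 (limma adjusted p = 0.0122), or 0.60 without WT serum array 2, where it did not pass (adjusted p = 0.0696). The starved difference was -1.09 and -0.98, with adjusted p of 0.0727 and 0.101, without starved KO array 2 or starved WT array 2. The difference after serum was 1.12 (adjusted p = 0.0746) without KO serum array 1.

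**Figure D2:**
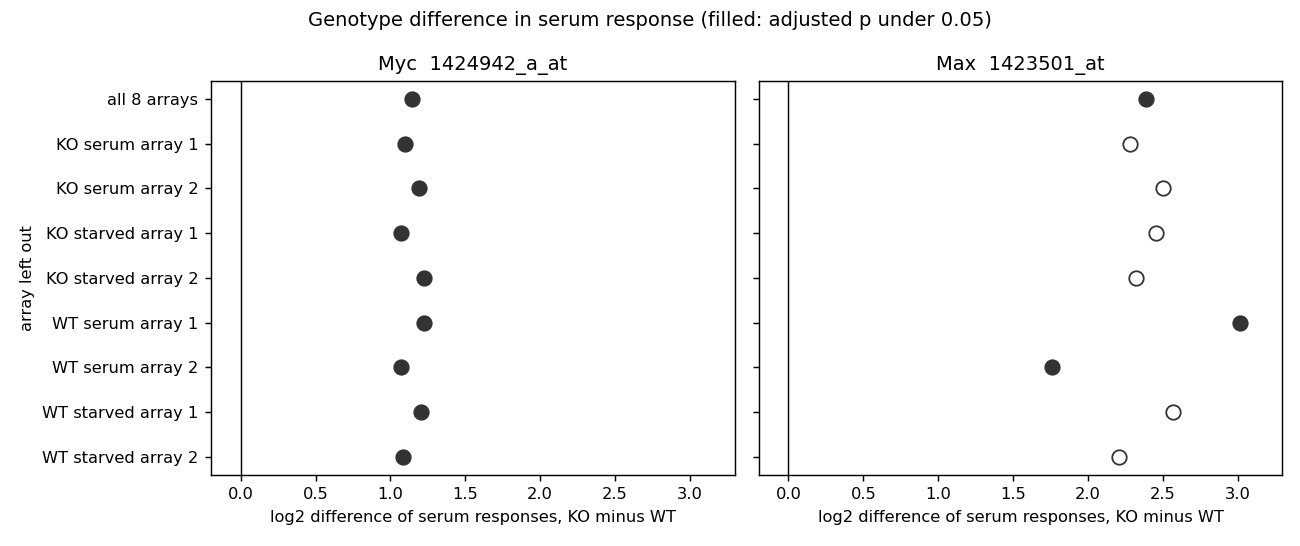
Difference of the serum responses, KO minus WT (log2, x axis), of Myc and Max with all 8 arrays and with each array left out in turn; filled points have a limma adjusted p under 0.05. Myc stays near 1.15 and keeps its call without any 1 array, and Max spans 1.76 to 3.02 and is filled only with all arrays or without a WT serum array. Leaving out a WT serum array leaves 1 in that group, so the spread between its arrays no longer enters the test.

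Mxd4, a Max partner that represses E-box genes and is found in resting cells, fell with serum in KO cells on its brighter probe sets. Probe set 1434378_a_at read 2525 and 2616 in KO cells given serum, against 4503 and 5091 in starved KO cells. In WT cells it read 3925 and 4245 after serum, against 5243 and 5877 in starved cells. Groups within each genotype did not overlap, and the KO serum arrays were the lowest of all. The KO change was -0.89 ± 0.126 on the log2 scale, a fall of 1.86-fold (limma adjusted p = 0.000969). The WT change of -0.44 did not pass (95% interval -0.72 to -0.16, limma adjusted p = 0.0879).

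The second bright Mxd4 probe set, 1434379_at, behaved alike in direction. It read 1854 and 1942 in KO cells given serum and 3031 and 2768 in starved KO cells, against 3229 and 3306 in WT cells given serum and 4120 and 3616 in starved WT cells. Its log2 change was -0.61 ± 0.130 in KO cells (limma adjusted p = 0.00873, but 0.0650 without KO serum array 1), and -0.24 in WT cells did not pass (limma adjusted p = 0.379). The responses of the genotypes were not shown to differ for either probe set, at -0.45 (95% interval -0.85 to -0.06, limma adjusted p = 0.208) and -0.37 (95% interval -0.77 to 0.04, limma adjusted p = 0.313). After serum both were lower in KO than in WT cells, at log2 differences of -0.66 ± 0.126 (limma adjusted p = 0.00158) and -0.78 ± 0.130 (limma adjusted p = 0.000733). In starved cells only 1434379_at passed, at -0.41 (limma adjusted p = 0.0241), and that call was lost without starved KO array 2 or starved WT array 1 (adjusted p = 0.0986 and 0.157) or in a fit of the starved arrays alone (0.0547). The dimmer Mxd4 probe sets, at 465.4 to 1056 and 350.1 to 567.9 over the 8 arrays, passed in no comparison of the main fit. For 1422574_at, the brighter of these, KO minus WT after serum was -0.35, and -0.90 to 0.19 with an array left out.

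Mxi1, a further Max-binding repressor, had probe sets that differed. Probe set 1425732_a_at read 1078 and 1237 in KO cells given serum and 2082 and 2076 in starved KO cells, against 1421 and 1178 in WT cells given serum and 1446 and 1566 in starved WT cells. Starved KO cells stood above every other group. Its log2 change was -0.84 ± 0.160 with serum in KO cells (limma adjusted p = 0.00506), and the WT change of -0.22 did not pass (limma adjusted p = 0.541). The difference between these responses, -0.62, did not pass either (95% interval -1.13 to -0.12, limma adjusted p = 0.178). In starved cells it was higher in KO by 0.46 ± 0.160 (limma adjusted p = 0.0368), a call that was lost without any 1 of the 4 starved arrays (adjusted p of 0.0780 to 0.156) or with no filter (0.0553). The brighter probe set 1450376_at read 4026 and 4825 in KO cells given serum and 4963 and 5103 in starved KO cells, against 3751 and 3729 in WT cells given serum and 4418 and 4045 in starved WT cells. This probe set passed in no comparison of the main fit, and its serum difference in KO cells was -0.19 (95% interval -0.47 to 0.09). KO minus WT after serum was 0.24 (limma adjusted p = 0.147). It passed only with each array centred on its median, at 0.33 (limma adjusted p = 0.0475). Which Mxi1 transcripts each probe set reads was not given in the sources used here.

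Mnt, the widely expressed repressor that occupies Max in cycling and resting cells, gave nearly level signals. Its bright probe set read 4197 and 4680 in KO cells given serum and 4890 and 3728 in starved KO cells, against 4597 and 4253 in WT cells given serum and 4702 and 4643 in starved WT cells. The KO groups overlapped, and the WT serum arrays lay just below the starved ones. The serum difference was 0.05 in KO cells (95% interval -0.27 to 0.38) and -0.08 in WT cells (95% interval -0.40 to 0.24), and the genotypes differed by 0.00 after serum (95% interval -0.32 to 0.33). Mxd3, a repressor linked to the S phase of proliferating cells, read 586.8 and 547.9 in KO cells given serum and 468.9 and 425.3 in starved KO cells, against 468.1 and 362.5 in WT cells given serum and 446.3 and 412.4 in starved WT cells. Its KO serum arrays were the highest, but no comparison passed, and the serum difference in KO cells was 0.33 (95% interval -0.22 to 0.89).

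**Figure D3:**
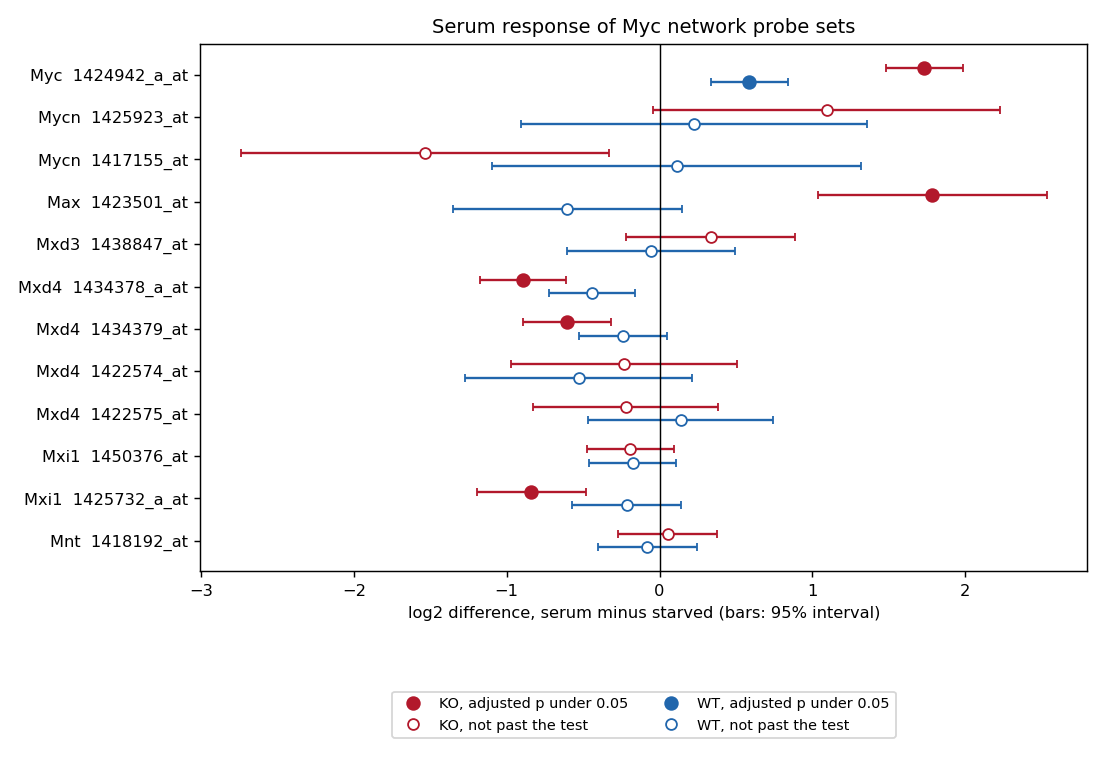
Serum minus starved log2 difference of each tested Myc network probe set in KO and WT cells, with 95% intervals from limma; filled points have adjusted p under 0.05. In KO cells Myc (1.73) and Max (1.79) lie to the right and Mxd4 (-0.89 and -0.61) and Mxi1 (-0.84) to the left, and in WT cells only Myc (0.59) is filled.

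Counted over the network, 5 of 12 tested probe sets passed for serum in KO cells, 2 up (Myc and Max) and 3 down (Mxd4 on 2 probe sets and Mxi1). Among all 14947 tested probe sets 9.33% rose and 13.8% fell in that comparison. Rises made up 40.4% of these calls with the deposited scaling and 58.4% after centring each array on its median, which moved the median change of all probe sets to -0.02, against -0.13 as deposited. The members' 5 calls and directions were the same under both. In WT cells 1 of 12 passed, the rise of Myc, where 2.44% of all probe sets rose and 1.7% fell. For the interaction 2 of 12 passed, both larger in KO cells (Myc and Max), against 1.61% of all probe sets larger and 1.08% smaller. In starved cells KO differed from WT for 4 of 12, 2 up (Mycn 1417155_at and Mxi1 1425732_a_at) and 2 down (Max and Mxd4 1434379_at), against 22.8% up and 24.8% down overall. The Mycn probe set was admitted by its starved KO arrays alone, and 3 of 9 passed among members that reached the 40th percentile in both genotypes. After serum 5 of 12 passed, 3 up (Myc, Max and Mycn 1417155_at) and 2 down (both bright Mxd4 probe sets), against 22.7% up and 27.5% down overall. Without the members that reached the 40th percentile in KO cells alone, Mycn 1417155_at among them, 4 of 9 passed. The members' shares in both genotype comparisons were no higher than those of all probe sets.

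The study's own rule was a change of over 2-fold, here applied to means of log2(signal + 16) of groups whose arrays do not overlap. By that rule 3 of 12 probe sets changed with serum in KO cells, Myc and Max upward and Mycn 1417155_at downward, against 6.96% of all tested probe sets. In WT cells 0 of 12 did, where limma called 1 (2 at an unadjusted p under 0.05), against 3.03% of all. Between KO and WT the rule held for 3 of 12 in starved cells (both Mycn probe sets and Max) against 19.3% of all, and for 2 of 12 after serum (Max and Mycn 1417155_at) against 20.5%. On the linear scale the starved means of Mycn 1425923_at were 366.7 in KO cells and 631.5 in WT cells, less than a 2-fold difference, and Mycn 1417155_at counts here only because its starved KO arrays passed the filter. Because both serum comparisons enter the interaction and share arrays with the genotype comparisons, the counts are not independent of each other.

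**Figure D4:**
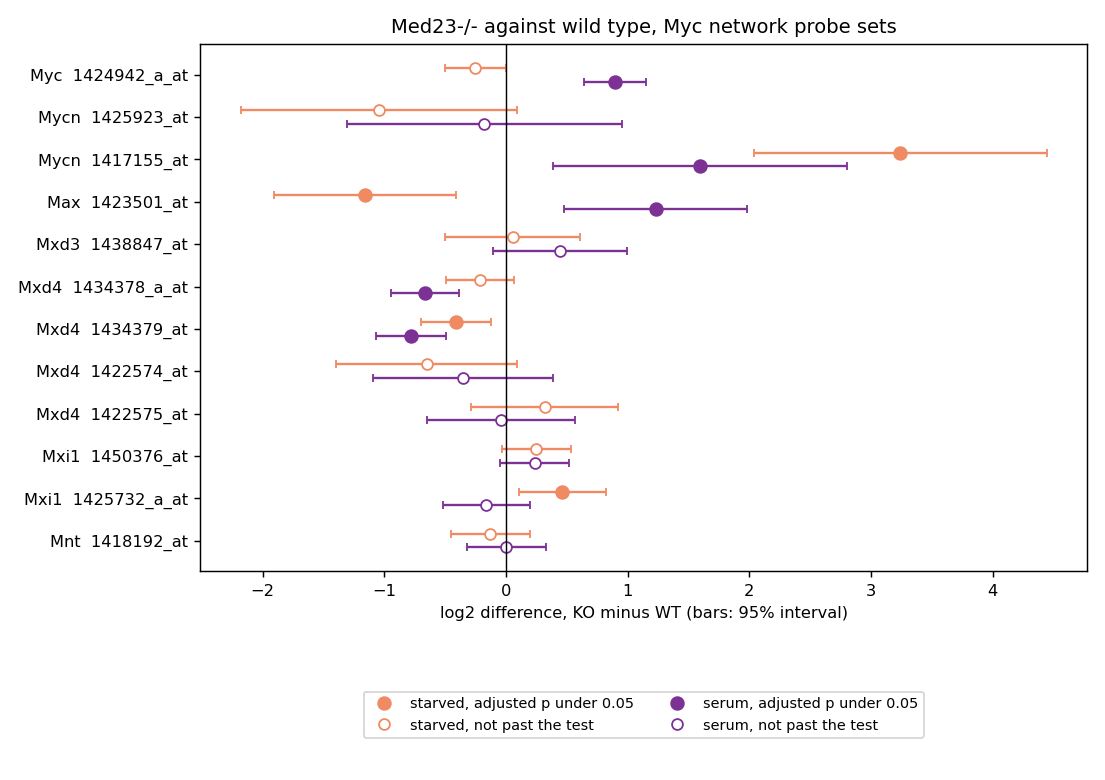
KO minus WT log2 difference of each tested Myc network probe set in starved cells and after serum, with 95% intervals from limma; filled points have adjusted p under 0.05. Max lies at -1.16 in starved cells and 1.23 after serum, Myc at -0.25 and 0.90, and both bright Mxd4 probe sets lie below 0 in both states. Mycn 1417155_at is filled in both but entered through its starved KO arrays alone.

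Of 20 partners and cofactors outside the 8 members 15 were tested, and 3 (20.0%) passed with serum in KO cells, against 23.1% of all tested probe sets. In KO cells Mlxip, a glucose-responsive partner of Mlx, rose by 0.63 while Kat2a, a histone acetyltransferase, and Smarcb1, a chromatin remodeller subunit, fell, with log2 changes of -0.48 and -0.43 (limma adjusted p = 0.00425, 0.0220 and 0.0332). Mlxip read 5696 and 5445 in KO cells given serum, against 3512 and 3674 in starved KO cells. By limma 0 of the 15 passed in WT cells (1 at an unadjusted p under 0.05), against 4.1% of all tested probe sets. In the interaction 0 of the 15 passed (2 at an unadjusted p under 0.05), against 2.7% of all. Between genotypes limma called 3 of the 15 in starved cells (20.0%) and 4 of the 15 after serum (26.7%). The shares of all tested probe sets were higher, at 47.6% and 50.2%. In starved cells KO held more Ruvbl1 (0.36) and less Ruvbl2 (-0.35), both helicases of Myc coactivator complexes. Starved KO cells also held less Zbtb17 (-0.97), the Miz1 protein through which Myc represses genes. After serum Mlxip was higher in KO (0.58) and Ep400 (-0.64), Ruvbl2 (-0.53) and Smarcb1 (-0.37) were lower. The median log2 difference of the list was -0.07 in KO and 0.07 in WT cells with serum, beside -0.13 and -0.05 over all tested probe sets.

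Genes that act on Myc protein stability gave 2 rises and no fall among 12 tested with serum in KO cells. That was 16.7% called, against 23.1% of all tested probe sets. The rises were those of Ran, a GTPase of nuclear transport (0.39), and Ppp2ca, a phosphatase catalytic subunit (0.38). There were no rise and 1 fall in WT cells (8.3% called, against 4.1% of all). The fall was that of Skp2, a ubiquitin ligase subunit (-0.72, limma adjusted p = 0.0469). In the interaction limma called 0 of 12 (3 at an unadjusted p under 0.05), against 2.7% of all. In starved cells 1 was higher and 8 were lower in KO (75.0% called, against 47.6% of all tested probe sets), and after serum 2 were higher and 5 lower (58.3%, against 50.2% of all). One of those lower in both states, Cip2a, reached the 40th percentile in WT cells alone. The list had medians of -0.58 and -0.15 beside -0.01 and -0.07 over all probe sets. Aurka and Plk1, mitotic kinases reported to stabilise Myc proteins, were among the lower ones. Aurka read 273.8 and 551.5 in KO cells given serum and 401.3 and 487.8 in starved KO cells, against 1775 and 1770 in WT cells given serum and 1744 and 2033 in starved WT cells. Its log2 difference was -2.05 ± 0.285 in starved cells (limma adjusted p = 0.000248) and -2.14 ± 0.285 after serum (limma adjusted p = 0.000182). Plk1 differed by -1.94 and -1.71, and Ran by -0.74 and -0.49. Ppp2r5a, a regulatory subunit of the phosphatase that acts on Myc, was higher in KO in both states, by 0.90 and 0.80 (limma adjusted p = 0.000506 and 0.00101), and Usp7, a deubiquitinase, by 0.58 after serum.

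Among genes that Myc is known to activate, 35 of 40 were tested. With 30 min of serum 8 rose, 4 fell and 23 did not pass in KO cells, and 1 rose, none fell and 34 did not pass in WT cells. The shares called were 34.3% in KO cells, against 23.1% of all tested probe sets, and 2.9% in WT cells, against 4.1% of all. The median differences were 0.11 and 0.06, beside -0.13 and -0.05 over all tested probe sets. Hk2, the glycolytic enzyme hexokinase, read 3115 and 3604 in KO cells given serum, against 1341 and 1316 in starved KO cells, and 4250 and 3737 in WT cells given serum, against 1752 and 1686 in starved WT cells. It rose by 1.32 ± 0.139 in KO cells (limma adjusted p = 0.000151) and 1.21 ± 0.139 in WT cells (limma adjusted p = 0.000707), with no overlap of arrays. Nolc1, a nucleolar assembly factor, rose by 1.38 in KO cells and Gnl3, the nucleolar protein nucleostemin, by 1.12, while Polr1b, a subunit of RNA polymerase I, fell by 0.68. Cad, an enzyme of pyrimidine synthesis, fell by 0.59 and Wdr74 fell by 0.50. In the interaction 0 of 35 passed by limma (5 at an unadjusted p under 0.05), against 2.7% of all tested probe sets.

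**Figure D5:**
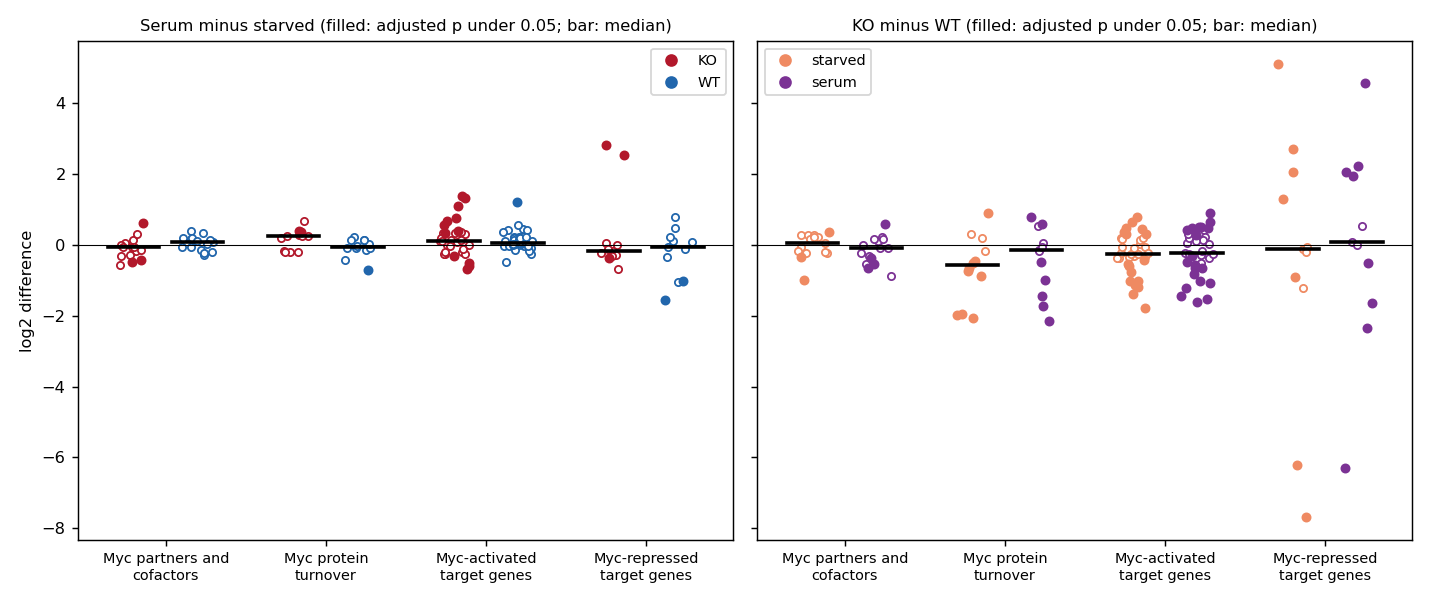
Log2 differences of the tested genes of 4 lists around Myc, for serum minus starved in KO and WT cells and for KO minus WT in starved cells and after serum; each point is 1 gene, filled where the adjusted p is under 0.05, and bars are medians. With serum the medians lie between -0.17 and 0.25, and for Myc-activated genes the KO minus WT medians are -0.24 in starved cells and -0.22 after serum.

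Between genotypes 7 activated targets were higher and 10 lower in starved KO cells (48.6% called, against 47.6% of all tested probe sets), and 8 were higher and 12 lower after serum (57.1%, against 50.2% of all), so that the shares lay near those of all probe sets. Npm1 and Ncl, abundant nucleolar proteins, were higher in KO by 0.66 and 0.46 in starved cells and by 0.66 and 0.52 after serum, and Nop58 by 0.80 and 0.91. Tfrc, the transferrin receptor, read 3902 and 3892 in KO cells given serum and 2977 and 2994 in starved KO cells, against 12749 and 9732 in WT cells given serum and 9915 and 10757 in starved WT cells. Its difference was -1.78 ± 0.137 in starved cells (limma adjusted p = 4.58e-06) and -1.51 ± 0.137 after serum (limma adjusted p = 1.46e-05). Cad differed by -1.02 and -1.60. Nme1, a nucleotide kinase, differed by -1.39 in starved cells and Shmt2, a mitochondrial enzyme of serine use, by -1.44 after serum. CACGTG was found in the promoter windows of 10 of the 33 activated targets that had one, or 30.3% of genes against 8.09% of all genes. The genes were listed as known Myc targets, and the windows of all genes were not matched to theirs in base composition. No conclusion is drawn from this share.

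Of 13 genes that Myc is known to repress 11 were tested, of which Cdkn2b and Gadd45a reached the 40th percentile in WT cells alone. With serum in KO cells 2 passed upward and 1 downward (27.3%, against 23.1% of all tested probe sets). Cdkn1a, the inhibitor p21, rose by 2.54 and Cdkn2c fell by 0.36 (limma adjusted p = 0.00427 and 0.0378), and Gadd45a, a stress protein, read 346.8 and 250.7 after serum, against 35.51 and 21.91 in starved KO cells, all below the 40th percentile. Cdkn1a read 12409 and 11639 in KO cells given serum, against 3995 and 1055 in starved KO cells, whose arrays differed widely. In WT cells Cdkn2b, the inhibitor p15, fell by 1.56 and Gas1, a growth arrest protein, fell by 1.03 (limma adjusted p = 0.00299 and 0.000168), and none rose (18.2% called, against 4.1% of all). Gas1 read 30752 and 30455 in KO cells given serum and 33444 and 32777 in starved KO cells, against 6873 and 6178 in WT cells given serum and 13252 and 13352 in starved WT cells. Its response differed between genotypes by 0.91 ± 0.135 (limma adjusted p = 0.00733). Limma also called the interaction for Gadd45a and Cdkn2b, so that with Gas1 3 of 11 passed (27.3%, against 2.7% of all tested probe sets). Without Gadd45a and Cdkn2b, which were admitted through WT arrays alone, 1 of 9 passed. Cdkn2b read 32.02 to 44.08 on all KO arrays, a level at which a fall could not be seen, and no difference in response is read for either gene. Between genotypes 4 were higher and 3 lower in starved KO cells (63.6%, against 47.6% of all), and 4 higher and 4 lower after serum (72.7%, against 50.2% of all). Without Cdkn2b and Gadd45a these counts were 4 higher and 1 lower of 9, and 4 higher and 2 lower of 9. Cdkn2c, the inhibitor p18, was higher in KO by 2.08 in starved cells and 2.06 after serum, and Cebpa, a differentiation factor, by 2.72 and 1.95. Ndrg1, a stress-responsive gene, was lower in KO, at log2 differences of -0.89 and -1.65.

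The genes with the pattern most like a member were found by the root mean square difference of log2 signal over the 8 arrays, after centring each probe set. This was done for Myc and for members whose brightest probe set was tested and spanned over 1 on the log2 scale between group means. These were Mycn, Max and Mxd4, and the other members were not searched. The search covered 13799 tested probe sets with 1 gene symbol. Closest to Myc were Cstf3, a subunit of the mRNA cleavage machinery (0.15), Ccnl1, a cyclin linked to splicing (0.16), and Eloc, elongin C (0.16). Ccnl1 read 23265 and 21413 in KO cells given serum and 7577 and 7230 in starved KO cells, against 16302 and 15559 in WT cells given serum and 8662 and 9636 in starved WT cells. Closest to Mxd4 1434378_a_at were Gmcl1 (0.05), Acads, an enzyme of fatty acid oxidation (0.10), and Suds3, a component of the Sin3 corepressor complex (0.10). For Max the nearest were Mapk8, the stress kinase JNK1 (0.32), Dync1li1 (0.37) and Ddx17 (0.41), which were less close. For Mycn 1425923_at they were Prima1 (0.16), Arhgap23 (0.21) and Cyp21a1 (0.23), and in all of these starved KO array 2 was the lowest array, as for Mycn itself.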

How the data were processed

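The deposited values are signal intensity per Affymetrix probe set, made by the authors with MAS5 (version not stated), per the submitters' processing notes. Values are linear, and the mean of each array, trimmed by 2% on both sides, is 2500.6 to 2500.8. Of 22690 probe sets, 64 controls were left out. GEO's platform annotation, with symbols updated by gene ID, gave 1 gene for 20380 of the rest, several for 691 and none for 1555. A probe set was tested if 2 or more of the 8 arrays reached their 40th percentile, which left 14947. Log2 of signal plus 16 was fitted in limma 3.58.1 (R 4.3.3) as 4 group means from the 8 arrays together, using a mean-variance trend in eBayes and Benjamini-Hochberg adjustment over all tested probe sets; a call was an adjusted p under 0.05. The procedure was tested on simulated data. With 2 arrays against 2, the smallest exact permutation p is 0.333, and the calls therefore depend on spread pooled over groups and probe sets. The labels do not say whether replicates were separate cultures, so p-values may measure technical spread only.

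Members, lists and tests were chosen with earlier results of these data known. Every member probe set was named. List genes, represented by their brightest probe set, were named by the smallest p, up to 3 called in each direction, with Med23 as a check. Egr1, also a check, rose with serum by 4.61 in KO and 2.60 in WT cells on the log2 scale. Starved KO cells held less Egr1 than starved WT cells, at -2.15 (limma adjusted p = 3.10e-06). After serum the genotypes were not shown to differ, at -0.15 (limma adjusted p = 0.461). Alternatives were the added constant, scaling, filter, trend, arrays in the fit, set number as a block, choice of probe set and leaving out each array. Promoter sequences came from RefSeq, and figures from matplotlib 3.10.9.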

Additional observations from a re-analysis of the deposited data

Results flagged for a closer look

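The serum response differed between genotypes by the interaction test for Myc, by 1.15 on the log2 scale (18 of 18 alternatives called), and for Max, by 2.39 (11 of 19 called). Among the Max calls are those without a WT serum array, where that group keeps 1 array and has no spread. Groups of 2 arrays are too small for a test of single arrays far from the others.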

How the results depend on the processing

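No call of a member probe set changed sign in any alternative. Of 1103 alternative values of single probe sets, 29 lost and 12 gained a call. The count of called probe sets for serum in KO cells (5) was 3 with 1 probe set per gene and 2 without probe sets with a letter suffix, which drops the called probe set of Myc, 1 of Mxd4 and 1 of Mxi1. It was 4 to 6 with an array left out, 4 without KO serum array 1. It was 6, with Mycn 1417155_at added, with no filter, without a trend, with only the arrays compared and with both larger added constants. For serum in WT cells the count of 1 was 0 without a trend and 0 without suffixed probe sets. The Myc call was also lost when some single WT arrays were left out. Without WT serum array 1 the difference of Max was -1.23, a value that rests on the other array of that group alone. The interaction count of 2 was 1 with no filter, 1 without a trend, 1 without suffixed probe sets and 1 to 2 with an array left out. For KO against WT in starved cells the count of 4 was 1 with 1 probe set per gene and 0 to 5 with an array left out. It was 0 without starved KO array 2, where Mycn 1417155_at no longer passed the filter, and 2 without either starved WT array. After serum the count of 5 was 3 with 1 probe set per gene, 3 without suffixed probe sets and 3 to 5 with an array left out. Where fewer probe sets were tested, the construction shows the cause, and otherwise the cause was not tested. Counting only members that reached the 40th percentile in both genotypes, chosen after seeing the data, gave 5, 1, 2, 3 and 4 in the order serum in KO, serum in WT, interaction, starved and after serum. With the set number as a replicate block the counts were 5, 1, 2, 4 and 5, the main values. Differences between set 2 and set 1 correlated between groups at -0.03 to 0.21, and the labels do not say that the numbers pair samples. Dim signals limit Mxd1, Mxd3, Mycn and part of Mxd4.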

Other observations

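Among the fibroblast markers, Col1a2, a chain of type I collagen, differed between the WT sets. It read 742.9 in set 1 and 9443 in set 2 of WT cells given serum, and 581.4 in set 1 and 8871 in set 2 of starved WT cells. On the KO arrays it read between 62376 and 91077. Other markers of the list also differed between the WT sets. Col3a1 read 6578 after serum and 8532 when starved in set 1, against 13106 and 12893 in set 2. Dcn went the other way, at 7169 and 8105 in set 1 and 4807 and 4941 in set 2. Nes, a neural progenitor marker, read 530.2 and 445.4 in KO cells given serum and 505.0 and 519.2 in starved KO cells, against 6134 and 5233 in WT cells given serum and 3335 and 2876 in starved WT cells. Tubb3 was also lower on every KO array, while Map2 and Sox10, of the same neural list, were higher. Map2 read 1597 to 2025 on KO arrays and 342.8 to 358.7 on WT arrays. Sox10 read 721.3 to 787.9 on KO arrays and 482.0 to 606.6 on WT arrays. The filter admitted Tubb3 through WT arrays alone and Map2 through KO arrays alone, so that both had to differ between genotypes.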
